A study of Mus musculus with 18 samples.

Results

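The cyclin D, CDK4/6 and RB axis was followed through 10 genes, taken by gene name from the deposited FPKM tables: the D-type cyclins Ccnd1, Ccnd2 and Ccnd3, the kinases Cdk4 and Cdk6, the pocket protein Rb1, and the inhibitors Cdkn2a, Cdkn2b, Cdkn2c and Cdkn1b. All 10 had a row in the table of cultured cells, which held 55183 genes, and 9 had a row in the table of whole brains, which held 19464. Cdkn2a was the member with no row in the brain table and was not analysed there. FPKM is the number of fragments assigned to a gene, scaled for the length of its exons and the depth of its library. Levels of different genes are set side by side on this scale as a description only. Some differences between libraries still followed gene length, as given below.

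RNA was sequenced from 18 mouse libraries in 6 groups of 3. The cells were PTCP53 304, a culture of Sonic hedgehog (SHH) medulloblastoma, a cerebellar tumour, with the genotype Ptch1+/-; Trp53-/- in every group. They received vehicle or CT-179, labelled as OLIG2 inhibition, for 24 h or 144 h. The brains were whole brains of Ptch1+/- mice, with an unexplained IR in the genotype label of every group, and all of these mice were given vehicle or CT-179 from postnatal day 3 to postnatal day 15 and collected on day 15. All cell groups share 1 line. The labels do not state whether replicates came from separate cultures or animals, and the p-values therefore measure the spread between these libraries, which may be technical. The word vehicle also occurs in the titles of the CT-179 brains. The column names begin with C for the vehicle brains and with V for the CT-179 brains. Every direction in brain rests on the treatment label.

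D-type cyclins bind CDK4 or CDK6 during G1, before DNA synthesis, and the kinases then phosphorylate RB and release E2F transcription factors that drive S phase genes. INK4 proteins, encoded by Cdkn2a, Cdkn2b, Cdkn2c and Cdkn2d, bind the kinases and block them, while p27Kip1, encoded by Cdkn1b, binds assembled cyclin and kinase complexes. In the developing cerebellum SHH keeps granule neuron precursors dividing, with Ccnd1, Ccnd2 and Mycn among the genes raised by the pathway.

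Cell libraries held an implied 2.86e+07 to 6.87e+07 reads and brain libraries 1.70e+07 to 6.09e+07. Of the 6 markers of granule neuron precursors listed, Zic1, Zic2, Pax6 and Mfap4 averaged at least 1 FPKM in each cell group, whereas Atoh1 did not exceed 0.0254 FPKM in any cell library and Barhl1 did not exceed 0.0115. Olig2, the gene of the inhibited protein, stood at 366 to 411 FPKM at 24 h and 180 to 216 FPKM at 144 h. Microglial, endothelial, erythroid and choroid plexus markers each summed to less than 1 FPKM in every cell library, and all 4 kinds were present in brain. In brain vehicle replicate 2, Lars2 and Gm15564, which overlap, took 12.5% of the implied reads, against at most 0.0731% in the other brains.

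CT-179 replicate 2 at 144 h stood apart from all other cell libraries, with Pearson correlations of log2(FPKM + 1) across genes of 0.941 and 0.943 to the other two of its group, where every other pair within a group reached 0.996 or more. Its values for the axis departed from those of replicates 1 and 3 in an order that largely followed exonic length (Spearman's rho -0.73 over the 10 members, a description). Cdkn2a, with 1172 bp of exon, was at 2.15 times the mean of the other two, Cdk4 (3249 bp) at 1.60 times, and Cdkn2c (2686 bp) at 1.5 times. Ccnd1 (4709 bp) was at 0.782 times, Rb1 (6015 bp) at 0.564 times, Ccnd2 (9409 bp) at 0.597 times and Cdk6 (13989 bp) at 0.519 times. Cdkn2b (1390 bp) at 1.28 times and Ccnd3 (8775 bp) at 1.40 times departed from that order. Over all 12505 genes tested that have a length, the log2 ratio of this library over its group mates fell with length (Spearman's rho -0.64 across genes, which are not independent), from a median of 0.60 among genes of 52 to 2177 bp to -0.67 among genes of 7569 to 41155 bp. The counts of members called in cells, and the values that rest on this library, are therefore given with and without it.

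**Figure D1:**
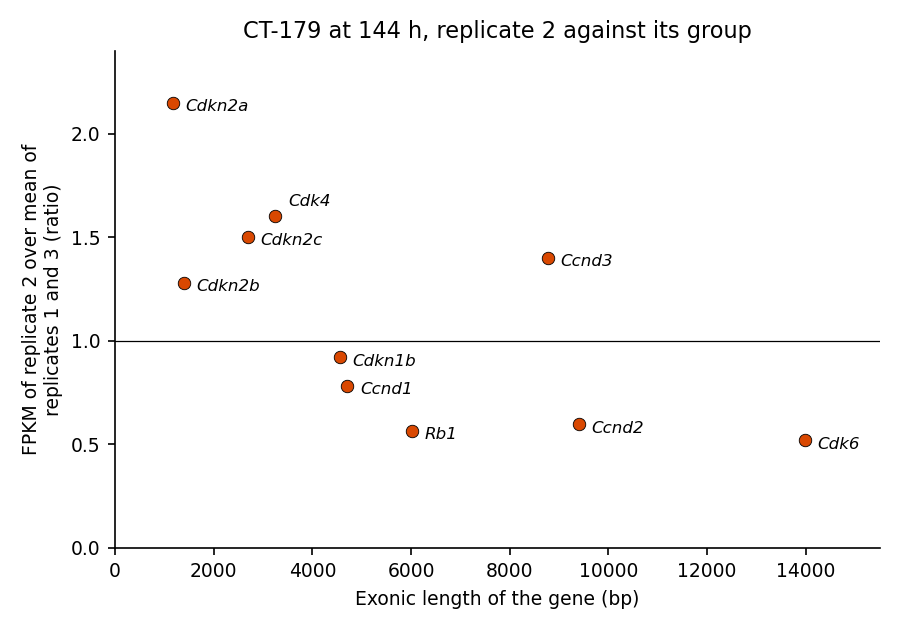
FPKM of CT-179 144 h replicate 2 divided by the mean FPKM of replicates 1 and 3 of its group (vertical axis, ratio), for each of the 10 genes, against the exonic length of the gene in bp (horizontal axis). The short Cdkn2a stood at 2.15 and the long Cdk6 at 0.519, with Ccnd3 at 1.40 above the line of equal level.

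At 24 h in vehicle the axis was dominated by Cdk4, at 242 ± 7.54 FPKM (SD, n = 3), by Ccnd1, at 160 ± 1.35 FPKM, and by Ccnd2, at 148 ± 3.90 FPKM. Cdkn2a followed at 82.1 ± 5.59 FPKM, Cdkn2c at 37.2 ± 0.451 FPKM, Ccnd3 at 35.3 ± 0.724 FPKM and Cdkn1b at 24.0 ± 0.966 FPKM. Rb1 stood at 9.56 ± 0.523 FPKM, Cdkn2b at 3.08 ± 0.103 FPKM and Cdk6 at 0.730 ± 0.0770 FPKM. The ranges of neighbours in this order did not overlap. In the 24 h libraries Cdk6 rested on 212 to 473 implied reads and Cdkn2b on 92 to 273, and no other member had fewer than 1325 in any cell library.

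**Figure D2:**
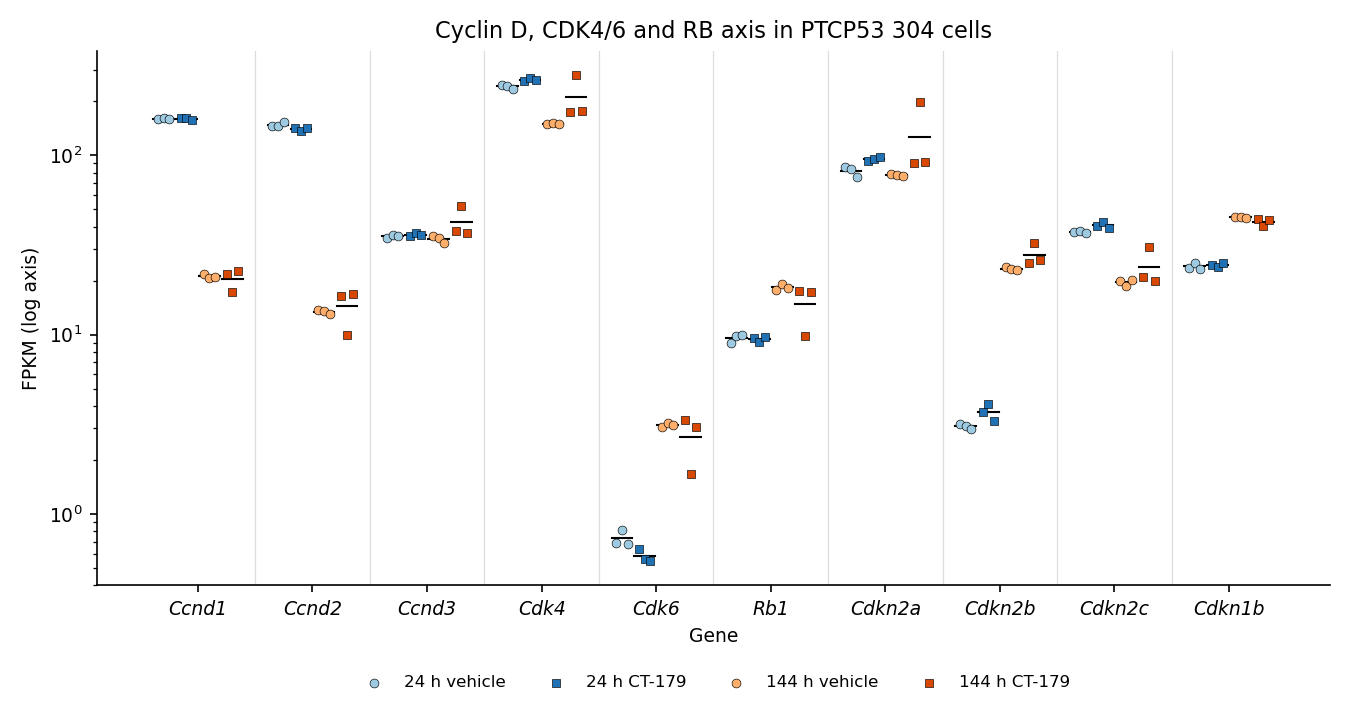
FPKM of the 10 genes (log axis) in the 12 cell libraries, as points for single libraries and a black line for the group mean, in the order 24 h vehicle, 24 h CT-179, 144 h vehicle and 144 h CT-179. Ccnd1 and Ccnd2 stood far lower at 144 h in both treatments, Cdkn2b stood far higher, and 1 CT-179 library at 144 h lies away from its group for most genes.

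The comparison of 144 h with 24 h in vehicle asks how the axis changed over time in culture without the inhibitor. Of the 12510 genes tested, 34.1% were higher and 32.4% lower at 144 h (limma on log2(FPKM + 1), Benjamini-Hochberg adjusted p below 0.05), so a call here is common. Among the members 4 rose, namely Cdkn2b, Cdk6, Cdkn1b and Rb1, and 4 fell, namely Ccnd1, Ccnd2, Cdk4 and Cdkn2c, while Ccnd3 and Cdkn2a did not pass. Cdk6 was below 1 FPKM in all 24 h libraries and entered the test only through the 144 h groups where it is high. Its call and its lack of overlap are therefore descriptions. Without CT-179 144 h replicate 2, which enters here only through the shared estimate of the spread, the same 8 passed with unchanged differences, where 44.2% of genes tested were higher and 43.4% lower. The vehicle libraries of the 2 times did not overlap for these 8 members, and this held for 44.6% of all genes tested in the higher and 42.9% in the lower direction. The median difference of the 10 members was -0.06 on the log2 scale, against 0.01 over all genes tested.

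Ccnd1 (ENSMUSG00000070348.5, mm10 chr7:144929931-144939869, minus strand), the cyclin D most often linked to SHH signalling and to growth factors, gave 159, 161 and 159 FPKM in the vehicle libraries at 24 h and 21.9, 20.8 and 20.9 FPKM at 144 h. The times were far apart, with a 7.54-fold lower mean at 144 h and a fitted log2 difference of -2.86 (SE 0.08, limma adjusted p = 5.1e-10). Ccnd2 (ENSMUSG00000000184.12, chr6:127125162-127152193, minus strand), a D-type cyclin that cerebellar precursors use, gave 146, 146 and 153 FPKM at 24 h and 13.7, 13.5 and 13.1 FPKM at 144 h. Its mean was 11-fold lower, with a log2 difference of -3.37 (SE 0.15, limma adjusted p = 1.1e-08), the largest fall among the members.

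Ccnd3 (ENSMUSG00000034165.16, chr17:47505051-47599691, plus strand), the third D-type cyclin, did not pass in the fit of all libraries. It gave 34.5, 35.9 and 35.6 FPKM at 24 h and 35.4, 34.6 and 32.3 FPKM at 144 h, so the times overlapped. The log2 difference was -0.05, with a 95% interval of -0.30 to 0.20 (limma adjusted p = 0.71). Without CT-179 144 h replicate 2, Ccnd3 passed as lower with median-of-ratios scaling and with a correction for length (-0.11 in both, limma adjusted p = 0.013 and 0.0084), and had 0.05 with TPM scaling (0.22).

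The make-up of the D-type cyclin pool therefore differed between times. Ccnd3 made up 10.2%, 10.5% and 10.3% of the summed FPKM of the 3 cyclins in vehicle at 24 h, and 49.9%, 50.2% and 48.6% at 144 h. Ccnd2 went from 43.2% ± 0.735 (SD, n = 3) to 19.6% ± 0.242 and Ccnd1 from 46.6% ± 0.670 to 30.9% ± 0.683. The summed level itself was 340, 343 and 347 FPKM at 24 h and 71.0, 68.9 and 66.3 FPKM at 144 h. Beside Cdkn1b, the summed cyclins stood at a ratio of 14.3 ± 0.629 at 24 h and 1.52 ± 0.0448 at 144 h. These shares are descriptions without a test.

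**Figure D3:**
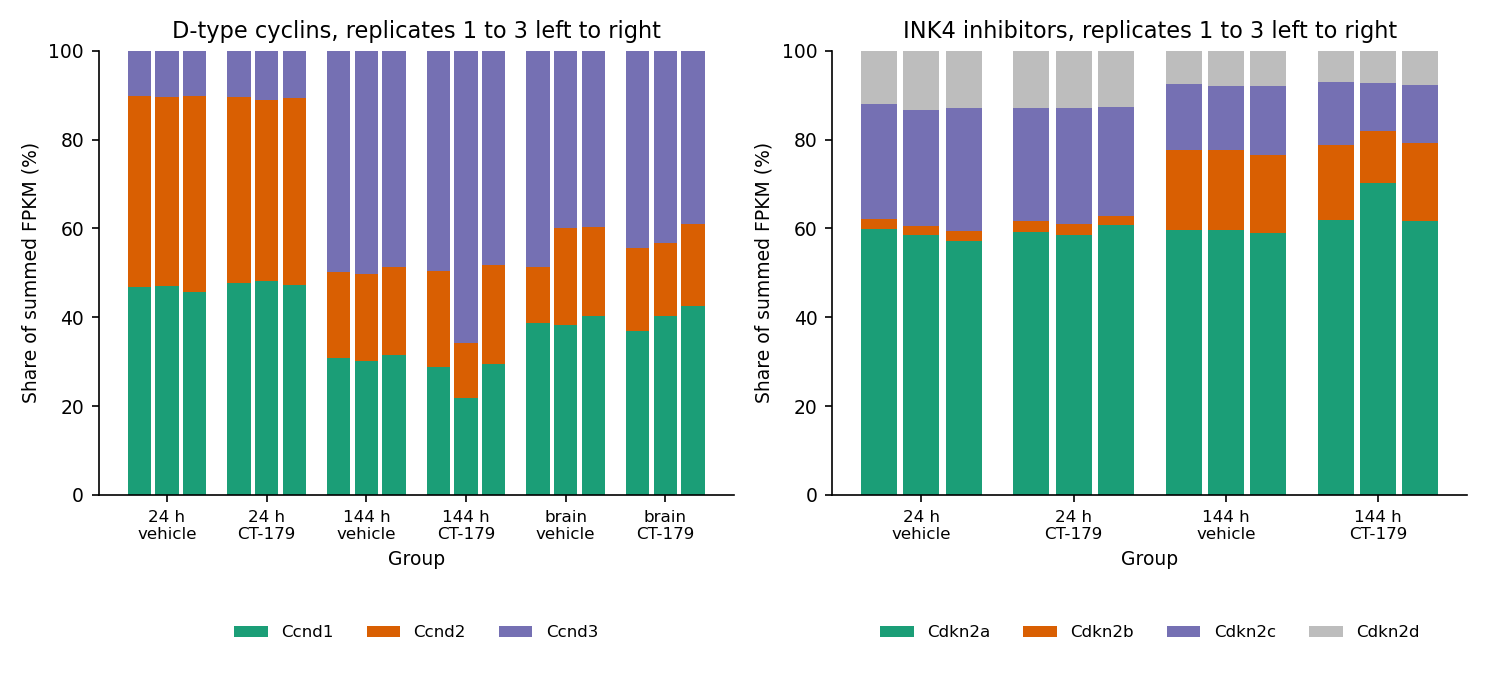
Stacked bars give the share of each gene in the summed FPKM (vertical axis, percent) of the D-type cyclins in all 6 groups (left) and of the INK4 inhibitors in the 4 cell groups (right), 1 bar per library. Ccnd3 held close to 10% at 24 h and near 50% at 144 h in vehicle, and Cdkn2b widened from 2.20% to 17.8% of the INK4 sum.

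The kinases moved in opposite directions. Cdk4 (ENSMUSG00000006728.12, chr10:127063534-127067920, plus strand), a catalytic partner of the D-type cyclins, gave 248, 244 and 234 FPKM in vehicle at 24 h and 149, 151 and 150 FPKM at 144 h, with no overlap. The fitted log2 difference was -0.69 (SE 0.15, limma adjusted p = 0.0021). Cdk6 (ENSMUSG00000040274.11, chr5:3341485-3531008, plus strand), the other partner kinase, gave 0.690, 0.818 and 0.681 FPKM at 24 h and 3.06, 3.21 and 3.15 FPKM at 144 h. The log2 difference was 1.26 (SE 0.15, limma adjusted p = 2.3e-05), but Cdk6 was below 1 FPKM in all 24 h libraries and so entered the test only through the 144 h groups where it is high. Cdk4 remained the main kinase transcript, at 334 ± 32.2 times the FPKM of Cdk6 at 24 h and 47.7 ± 1.04 times at 144 h in vehicle.

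To let the upstream sequences of both kinases be compared, the 250 bases before each start are given 5′ to 3′ on the strand of the gene, from RefSeq (GRCm38.p6), with the E-box CACGTG, a site type that MYC family proteins can bind, in capitals. They lie at chr10:127063285-127063534 for Cdk4 and chr5:3343643-3343892 for Cdk6.
Cdk4: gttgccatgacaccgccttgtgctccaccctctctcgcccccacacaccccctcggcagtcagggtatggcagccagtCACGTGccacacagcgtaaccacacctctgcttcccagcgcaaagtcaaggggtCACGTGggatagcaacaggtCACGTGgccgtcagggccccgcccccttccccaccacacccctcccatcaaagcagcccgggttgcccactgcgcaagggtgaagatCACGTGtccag
Cdk6: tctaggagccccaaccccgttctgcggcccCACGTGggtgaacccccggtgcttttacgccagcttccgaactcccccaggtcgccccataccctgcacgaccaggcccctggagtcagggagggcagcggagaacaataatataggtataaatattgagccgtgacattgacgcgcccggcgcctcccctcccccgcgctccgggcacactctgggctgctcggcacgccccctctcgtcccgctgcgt
The Cdk4 window held CACGTG 4 times, at 172, 118, 98 and 11 bases before the start, and the Cdk6 window held it once, at 220 bases. CACGTG reads the same on both strands, and 6.02% of the 32851 mouse promoter windows of this length held it at least once. A match describes the letters only.

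Among the INK4 inhibitors, neighbours on chromosome 4 differed in their course. Cdkn2b (ENSMUSG00000073802.5, chr4:89306299-89311039, minus strand), which encodes p15Ink4b, gave 3.18, 3.09 and 2.97 FPKM in vehicle at 24 h and 23.9, 23.3 and 22.8 FPKM at 144 h. This was a 7.57-fold higher mean, with a log2 difference of 2.58 (SE 0.10, limma adjusted p = 3e-09), the largest rise among the members. Cdkn2a (ENSMUSG00000044303.6, chr4:89274471-89294653, minus strand), which encodes p16Ink4a and p19Arf from separate first exons, gave 86.2, 84.3 and 75.7 FPKM at 24 h and 79.1, 77.4 and 76.8 FPKM at 144 h. The times overlapped and its log2 difference was -0.07 (95% interval -0.60 to 0.45, limma adjusted p = 0.8). Cdkn2a passed as lower with array weights (-0.10, limma adjusted p = 0.019) and with median-of-ratios scaling without CT-179 144 h replicate 2 (-0.13, 0.0073). One row covers the whole Cdkn2a gene, so its level does not tell p16Ink4a, a CDK4 and CDK6 inhibitor, from p19Arf, which acts on the p53 pathway.

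Since Cdkn2b passed the test and its neighbour did not, the 250 bases before the start of Cdkn2b (chr4:89311033-89311282) and before the upstream and downstream starts of Cdkn2a (chr4:89294620-89294869 and chr4:89282193-89282442) are set out in the same way, 5′ to 3′ on the minus strand, with E2F type motifs in capitals.
Cdkn2b: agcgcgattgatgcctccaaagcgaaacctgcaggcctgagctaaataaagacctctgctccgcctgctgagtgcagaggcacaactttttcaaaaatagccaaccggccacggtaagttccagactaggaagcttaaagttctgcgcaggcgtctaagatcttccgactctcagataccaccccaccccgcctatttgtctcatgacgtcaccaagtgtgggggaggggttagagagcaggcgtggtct
Cdkn2a upstream start: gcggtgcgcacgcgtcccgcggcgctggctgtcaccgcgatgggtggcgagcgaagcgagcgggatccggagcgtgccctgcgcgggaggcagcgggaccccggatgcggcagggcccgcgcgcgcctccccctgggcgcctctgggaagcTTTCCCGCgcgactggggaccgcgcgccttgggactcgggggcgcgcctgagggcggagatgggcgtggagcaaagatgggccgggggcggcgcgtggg
Cdkn2a downstream start: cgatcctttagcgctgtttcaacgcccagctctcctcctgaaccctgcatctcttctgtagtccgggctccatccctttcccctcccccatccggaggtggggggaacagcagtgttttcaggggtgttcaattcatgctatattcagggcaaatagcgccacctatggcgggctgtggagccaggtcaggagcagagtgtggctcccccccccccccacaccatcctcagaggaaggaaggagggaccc
The motifs searched on both strands were TTTCCCGC, TTTGGCGC, TTTCGCGC and TTTGCCGC, and 1.86% of all windows held at least one of them. The upstream Cdkn2a window held TTTCCCGC once, 99 bases before the start, and the other two windows held none of the 4 motifs nor CACGTG, which says only that these letters are not in these windows. No window printed here held CAGCTG or CATATG, E-box forms found in 13.0% and 3.46% of all windows. Windows were found for 7 of the 10 members, and not for Ccnd1, Ccnd2 and Rb1.

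Cdkn2c (ENSMUSG00000028551.14, chr4:109660876-109667189, minus strand), which encodes p18Ink4c and restrains cerebellar precursors, gave 37.4, 37.6 and 36.7 FPKM at 24 h and 19.8, 18.7 and 20.2 FPKM at 144 h in vehicle. The times did not overlap, and the log2 difference was -0.89 (SE 0.13, limma adjusted p = 0.00011). The fourth INK4 gene, Cdkn2d, fell as well, by 0.74 on the log2 scale (SE 0.19, limma adjusted p = 0.0052). The sum of the 4 INK4 genes was 144, 144 and 133 FPKM at 24 h and 133, 130 and 130 FPKM at 144 h. Within this nearly level sum, Cdkn2b went from 2.20% ± 0.0497 to 17.8% ± 0.271 (SD, n = 3), Cdkn2c from 26.6% ± 0.984 to 14.9% ± 0.541, and Cdkn2a was at 58.5% ± 1.32 and 59.4% ± 0.345.

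Cdkn1b (ENSMUSG00000003031.14, chr6:134920401-134925513, plus strand), the gene of p27Kip1, gave 23.6, 25.1 and 23.3 FPKM in vehicle at 24 h and 45.3, 45.4 and 44.9 FPKM at 144 h. All 144 h libraries lay above all 24 h libraries, with a log2 difference of 0.89 (SE 0.06, limma adjusted p = 1.5e-07). Rb1 (ENSMUSG00000022105.6, chr14:73183673-73325822, minus strand), the pocket protein that holds E2F factors, gave 8.96, 9.82 and 9.90 FPKM at 24 h and 17.8, 19.2 and 18.3 FPKM at 144 h. Its fitted change was 0.88 on the log2 scale (SE 0.17, limma adjusted p = 0.00091). Among the 3 RB family genes Rb1 went from 24.9% ± 0.683 to 40.4% ± 1.04 of the summed FPKM (SD, n = 3), Rbl2 (p130, typical of resting cells) from 32.2% ± 1.22 to 51.5% ± 1.09, and Rbl1 (p107, typical of cycling cells) from 42.9% ± 0.557 to 8.07% ± 0.480.

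Exons of Ccnd1, Ccnd2, Ccnd3, Cdk4, Cdk6 and Rb1 overlap exons of a gene on the opposite strand. The overlapping neighbour with the highest level was Tspan31 beside Cdk4, at up to 82.7 FPKM with 641 bp shared. The strand used in counting was not given, so reads from such shared stretches cannot be told apart.

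In CT-179 the course from 24 h to 144 h was the same in kind for 7 members, where 33.2% of all genes tested were higher and 32.1% lower. Cdkn2b (log2 difference 2.61), Cdk6 (1.19), Cdkn1b (0.78) and Rb1 (0.57) rose, and Ccnd1 (-2.92), Ccnd2 (-3.22) and Cdkn2c (-0.78) fell. Cdk6 again entered the test only through the 144 h groups where it is high. Cdk4 had a log2 difference of -0.36 and missed the threshold (SE 0.15, limma adjusted p = 0.058). With all libraries Cdk4 was called lower under TPM scaling, array weights and the length correction. Cdkn2a did not pass with all libraries or without CT-179 144 h replicate 2, but was called lower with median-of-ratios scaling without that library. Without CT-179 144 h replicate 2, 8 members passed: Cdk4 fell by 0.58 (SE 0.03, limma adjusted p = 2.5e-09) beside the same 7, and 43.9% of genes tested were higher and 41.7% lower. In that fit Ccnd1 had -2.80, Ccnd2 -2.99, Cdkn2c -0.97, Cdkn2b 2.50, Cdk6 1.41, and Cdkn1b and Rb1 0.82 each. The call of Rb1 rested on the libraries and the fit: it was lost without CT-179 144 h replicate 1 (0.43) or replicate 3 (0.44, limma adjusted p = 0.051 in both), with TPM scaling (0.54, 0.078) and in a separate fit of both groups (0.57, 0.078). Ccnd3 did not pass in CT-179, at 0.20 with all libraries and 0.04 without replicate 2, but passed as higher with TPM scaling (0.17, limma adjusted p = 0.024, and 0.14, 0.0049, without replicate 2) and without replicate 3 (0.29, 0.049). The vehicle and CT-179 courses share no libraries, and the test of their difference is that of the CT-179 effect between times below.

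**Figure D4:**
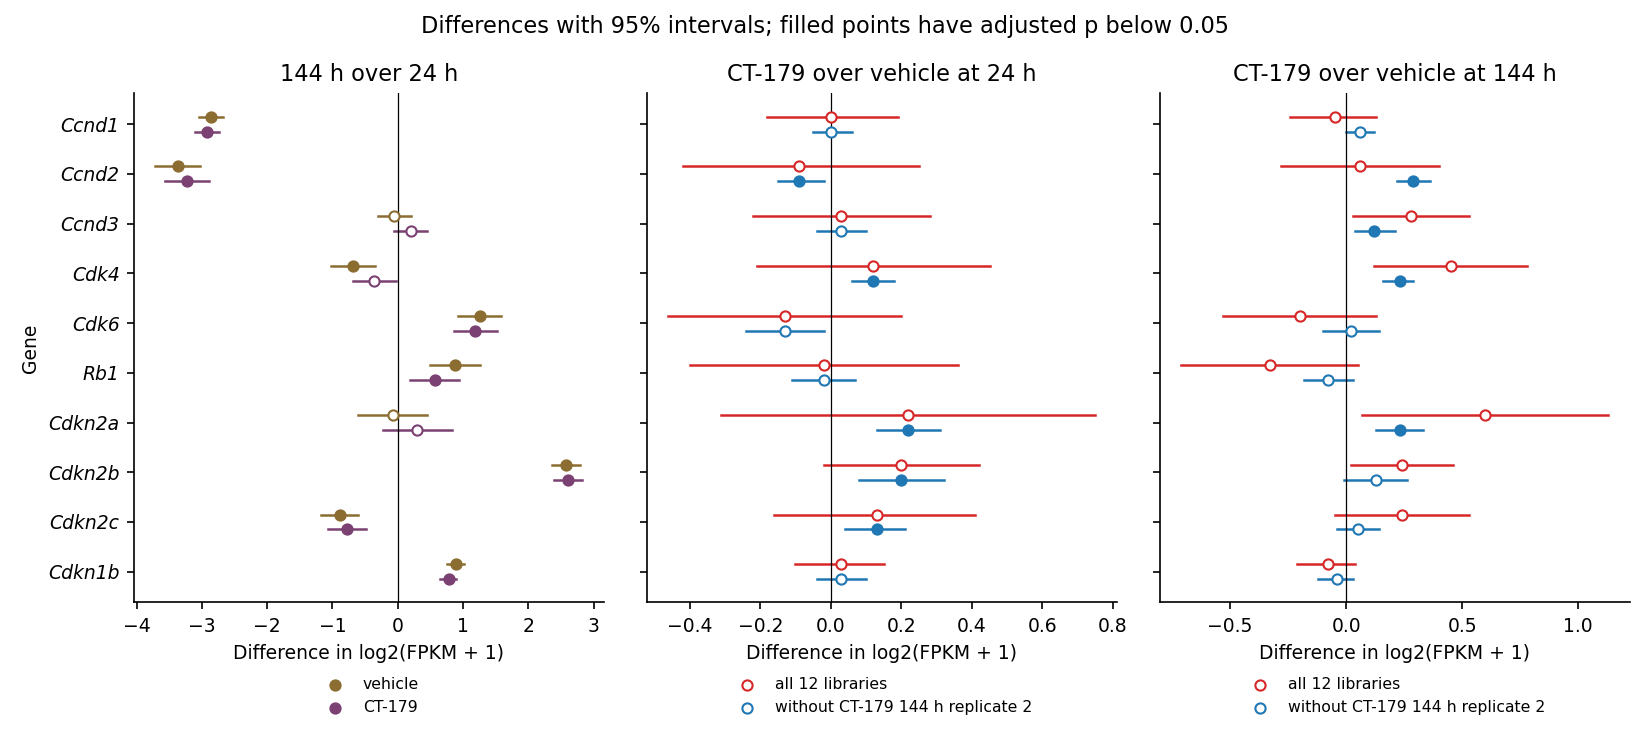
Fitted differences in log2(FPKM + 1) with 95% intervals for each gene: 144 h over 24 h in vehicle and in CT-179 (left), and CT-179 over vehicle at 24 h (middle) and at 144 h (right) with all 12 libraries or without CT-179 144 h replicate 2. Filled points have an adjusted p below 0.05. In the middle and right panels the intervals are wider with that library in the fit, and no point there is filled with all 12 libraries.

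The lists of other genes of the pathway are read against the 34.1% of all genes tested that were higher at 144 h in vehicle and the 32.4% that were lower. All 20 E2F targets of S phase entry fell, with a median log2 difference of -2.83 against 0.01 over all genes tested, among them Mcm5 (-3.60) and Mcm3 (-3.25), subunits of the replicative helicase, and Tyms (-3.04), which makes thymidylate. Of the 12 genes of the RB family, E2F and DP list, 9 fell and 2 rose, with E2f1 at -2.38, E2f7 at -2.35, E2f2 at -2.19 and Tfdp1, an E2F partner, at -1.48. Among 8 tested genes of cyclin E and A with CDK2, 6 fell and 1 rose, with the S phase cyclins Ccna2 at -4.04 and Ccne2 at -3.16, the latter also on the E2F target list, and Cables1, a CDK2 regulator, at 1.54. Of the 6 RB chromatin partners 5 fell, among them Rbbp7 (-1.42) and Suv39h1 (-0.96). Of the 7 DREAM and MuvB genes 5 fell and 1 rose, with Mybl2 at -2.82 and Foxm1 at -2.70.

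The lists upstream of the kinases were mixed. Of 6 genes for CDK assembly and activation 5 fell, among them the chaperone Hsp90aa1 (-1.12) and Cdk7 (-0.59), the CDK-activating kinase. Of 12 genes for cyclin D and p27 turnover 6 fell and 1 rose: Cks1b (-2.76) and Skp2 (-1.50), which act together in p27 degradation, were lower, and Fbxo4 (0.88) was higher. Of 8 genes upstream of cyclin D in SHH tumours 4 rose and 2 fell, near those percentages. Gli1, an SHH target and effector, gave 2.34, 2.6 and 2.4 FPKM in vehicle at 24 h and 19.4, 20.6 and 21.1 FPKM at 144 h, with a log2 difference of 2.63 (limma adjusted p = 1.2e-09). Mycn rose by 1.56 from 0.247 to 0.314 FPKM at 24 h to 2.61 to 2.91 FPKM at 144 h, but entered the test only through the 144 h groups where it is high. Myc fell by 1.76. The SHH target Gli1 and the cyclins Ccnd1 and Ccnd2 thus changed in opposite directions. Among other CDK inhibitors Cdkn1a (p21, log2 difference 1.53) and Cdkn1c (p57, 1.37) rose and Cdkn3 (-1.64) and Cdkn2d fell. E2f1, Mcm5 and Cdkn1a changed the same way in CT-179, where all 20 S phase genes fell.

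Marker sums of other cell types differed between times. The 6 astrocyte markers summed to 104 to 107 FPKM in vehicle at 24 h and 487 to 493 FPKM at 144 h, with Gfap at 0.357 to 0.448 and 85.9 to 98.4 FPKM. The 6 neuron markers summed to 40.8 to 42.1 and 93.4 to 96.7 FPKM at 24 h and 144 h. Of these, Map2 and Syt1 averaged at least 1 FPKM at both times and Tubb3 at 144 h only. Rbfox3, Snap25 and Stmn2 averaged below 1 FPKM at both times. The 6 markers of oligodendrocyte precursors, among them Olig1, Olig2 and Pdgfra, summed to 1014 to 1131 FPKM in vehicle at 24 h and 678 to 703 FPKM at 144 h. Not all of them went the way of the sum. Gpr17 averaged below 1 FPKM at 24 h and at least 1 FPKM at 144 h, and Sox10 below 1 FPKM at both times. In these bulk samples fewer cells of a kind and less RNA per cell cannot be told apart, and the part of cell makeup in the member changes was not tested.

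Likeness to single members was read over the 12 cell libraries, on log2(FPKM + 1), and is a description dominated by the step between times. Genes most like Ccnd1 were Fanci and Mcm2, of DNA repair and replication, and Incenp, of mitosis, each with Pearson's r 0.9996. For Ccnd2 they were Etv5 and Dusp4, both known to respond to ERK signalling (r 0.9993 each), and Stim2, a calcium sensor (0.9991). For Cdk6 they were Dtx4 (0.9978), Afap1l2 and Zfp853 (0.9977 each). Over 0.99 stood 622 genes for Ccnd1, 567 for Ccnd2 and 252 for Cdk6, so such values were common.

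The comparison of CT-179 with vehicle at 24 h asks what the axis did after 1 day of OLIG2 inhibition. With all 12 libraries in the fit none of the 10 members passed, where 0% of the 12510 genes tested were higher and 0.264% lower, and 640 genes had an unadjusted p below 0.05. No member was among those 640. Without CT-179 144 h replicate 2, which enters this comparison only through the shared estimate of the spread, the differences stayed as they were and 5 members passed, 4 higher and 1 lower, where 8.08% of 12459 genes tested were higher and 14.1% lower. That split of 1007 higher and 1755 lower genes depended on the scaling, at 2623 and 1067 with median-of-ratios scaling and 388 and 3346 with TPM scaling. Cdkn2a and Cdkn2b passed as higher under each of these scalings, and Cdk4 and Cdkn2c under all but TPM. Ccnd2 passed as lower under all but median-of-ratios scaling.

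Cdkn2a gave 93.4, 95.3 and 98.1 FPKM in CT-179 at 24 h, all above the vehicle libraries at 75.7 to 86.2 FPKM. For Cdkn2a the log2 difference was 0.22 (SE 0.24, limma adjusted p = 1) with all libraries, and 0.22 (SE 0.04, limma adjusted p = 0.0042) without CT-179 144 h replicate 2. Cdk4 gave 259, 269 and 262 FPKM, above the vehicle libraries at 234 to 248 FPKM, with a log2 difference of 0.12 (limma adjusted p = 1, and 0.0089 without that library). Both were small shifts, with means 1.16 and 1.09 times those of vehicle.

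In all, 4 members lay above all vehicle libraries at 24 h and 2 below, where 14.5% of all genes tested lay above and 22.9% below. Cdkn2b (3.68, 4.12 and 3.30 FPKM) and Cdkn2c (40.1, 42.6 and 39.4 FPKM) also stood above all vehicle libraries at 24 h, with log2 differences of 0.20 and 0.13 and limma adjusted p-values of 0.023 and 0.032 without the library apart. Ccnd2 gave 141, 136 and 141 FPKM, below all vehicle libraries, with a log2 difference of -0.09 (limma adjusted p = 0.048 without that library). Cdk6 gave 0.635, 0.563 and 0.545 FPKM, also below all vehicle libraries. Its log2 difference of -0.13 did not pass in either fit (limma adjusted p = 0.091 without that library). Cdk6 was called lower with array weights, and with TPM scaling without that library. Across all genes tested the CT-179 difference at 24 h fell with gene length (Spearman's rho -0.41), and the members above vehicle here were shorter than Ccnd2 and Cdk6, which lay below it. With a correction for length and without the library apart, Cdk4 (0.12, limma adjusted p = 0.0066) and Cdkn2a (0.16, 0.013) passed and Cdkn2b (0.057), Cdkn2c (0.052) and Ccnd2 (0.95) did not.

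Ccnd1, the other cyclin that fell with time, did not differ detectably at 24 h: CT-179 gave 161, 161 and 158 FPKM against 159 to 161 FPKM in vehicle. The difference was 0.00 on the log2 scale with a 95% interval of -0.18 to 0.19, and of -0.05 to 0.06 without the library apart. Ccnd3 (35.5, 37.0 and 35.9 FPKM), Rb1 (9.53, 9.04 and 9.72 FPKM) and Cdkn1b (24.3, 23.8 and 25.2 FPKM) overlapped the vehicle libraries, with log2 differences of 0.03, -0.02 and 0.03. Cdkn1b was called higher with median-of-ratios scaling without the library apart.

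At 144 h the comparison asks the same after 6 days. With all libraries none of the 10 members passed, where 0.512% of genes tested were higher and 3.37% lower, and 3647 genes had an unadjusted p below 0.05. Without CT-179 144 h replicate 2, 4 members were higher (Ccnd2, Cdk4, Cdkn2a and Ccnd3) and none lower, where 11.8% of genes were higher and 16.9% lower. The genes numbered 1472 higher and 2108 lower, against 2777 and 1406 with median-of-ratios scaling and 698 and 3412 with TPM scaling. The median difference over the 10 members was 0.15 with all libraries and 0.09 without that one, against -0.05 and -0.01 over all genes tested.

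Cdk4 gave 175, 280 and 176 FPKM in CT-179 at 144 h, all above the vehicle libraries at 149 to 151 FPKM. Its log2 difference was 0.45 (SE 0.15, limma adjusted p = 0.12) with all libraries and 0.23 (SE 0.03, limma adjusted p = 0.00041) without replicate 2. Cdkn2a gave 91.0, 197 and 92.1 FPKM against 76.8 to 79.1 FPKM, with log2 differences of 0.60 (SE 0.24, limma adjusted p = 0.15) and, without replicate 2, 0.23 (SE 0.05, limma adjusted p = 0.0041). For both genes CT-179 replicates 1 and 3 lay above vehicle, and replicate 2 lay far above them.

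Ccnd2 gave 16.4, 9.94 and 16.9 FPKM in CT-179 at 144 h and 13.1 to 13.7 FPKM in vehicle, so replicates 1 and 3 lay above vehicle and replicate 2 below it. Its log2 difference was 0.06 (SE 0.15, limma adjusted p = 0.76) with all libraries and 0.29 (SE 0.03, limma adjusted p = 0.00012) without replicate 2. Ccnd3 gave 37.6, 52.2 and 36.8 FPKM against 32.3 to 35.4 FPKM, with log2 differences of 0.28 (limma adjusted p = 0.15) and 0.12 (0.032). With a correction for length beside the left-out library these 4 passed again, at 0.37 for Ccnd2, 0.21 for Cdk4, 0.20 for Ccnd3 and 0.17 for Cdkn2a (limma adjusted p 0.011 or less). Scaling to TPM without that library kept Ccnd2, Cdk4 and Cdkn2a past the threshold and not Ccnd3.

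The remaining members did not pass in either fit at 144 h. Ccnd1 and Cdkn2b were called higher with array weights (0.07 and 0.14, limma adjusted p = 0.026 and 0.021), and with median-of-ratios scaling without replicate 2 (0.11 and 0.18, limma adjusted p = 0.016 and 0.042). Ccnd1 gave 21.7, 17.3 and 22.5 FPKM against 20.8 to 21.9 FPKM in vehicle, and overlapped it. Cdkn2b (25.0, 32.6 and 26.1 FPKM) lay above the vehicle libraries at 22.8 to 23.9 FPKM, with log2 differences of 0.24 (limma adjusted p = 0.16) and 0.13 (0.14) without replicate 2. Cdkn2c gave 20.9, 30.6 and 19.8 FPKM, and Cdk6 3.32, 1.66 and 3.07 FPKM, both overlapping vehicle. Rb1 (17.5, 9.83 and 17.3 FPKM) and Cdkn1b (44.3, 40.3 and 43.5 FPKM) lay below all vehicle libraries, with log2 differences of -0.33 and -0.08, and of -0.08 and -0.04 without replicate 2. In all, 4 members lay above all vehicle libraries at 144 h and 2 below, where 19.1% of all genes tested lay above and 27% below.

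Among the other genes of the pathway, none of the 9 lists had a member past the threshold at 24 h with all libraries, and 2 genes passed at 144 h. Gli1 gave 12.3, 9.38 and 11.5 FPKM in CT-179 against 19.4 to 21.1 FPKM in vehicle, a fall of the log2 level by 0.83 (limma adjusted p = 0.0016), and by 0.73 without replicate 2. Foxm1, a driver of G2 and M phase genes, fell by 0.49 (limma adjusted p = 0.022), and by 0.36 without replicate 2. Mycn was at 3.24, 3.58 and 3.39 FPKM against 2.61 to 2.91 FPKM, a log2 difference of 0.23 (limma adjusted p = 0.071, and 0.032 without replicate 2). E2f1 had 0.04 (limma adjusted p = 0.66) and Cdkn1a 0.01 (0.95). The 20 S phase genes had a median of -0.04 with none past the threshold, and without replicate 2 of -0.06 with 4 lower, among them Cdt1 (-0.25) and Mcm5 (-0.17), and 1 higher (Mcm6, 0.08), where 16.9% of genes were lower and 11.8% higher. That split turned with the scaling. Without replicate 2 and with median-of-ratios scaling 4 were higher and 1 lower, where 2777 of 12445 genes tested were higher and 1406 lower. With TPM scaling 7 were lower, where 3412 of 12500 genes tested were lower. At 24 h without that library 4 of 8 genes upstream of cyclin D were lower, namely Gli1 (-0.25), Ptch1 (-0.21), Gli3 (-0.18) and Gli2 (-0.16), where 14.1% of all genes were lower. With median-of-ratios scaling 3 of the 8 were lower and 1 higher, where 1067 of 12445 genes tested were lower and 2623 higher. With TPM scaling 6 were lower, where 3346 of 12500 genes tested were lower.

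Whether the effect of CT-179 differed between 144 h and 24 h was tested as an interaction. No member passed with all libraries, where 0% of genes had a higher and 0% a lower effect at 144 h and 574 genes had an unadjusted p below 0.05. Without CT-179 144 h replicate 2, Ccnd2 alone among the members passed, with an effect that was higher at 144 h by 0.38 (SE 0.04, limma adjusted p = 0.0027), where 1.2% of genes were higher and 1.46% lower. With all libraries the same difference was 0.15 (SE 0.21, limma adjusted p = 0.73). Ccnd2 thus lay below vehicle in all CT-179 libraries at 24 h, and above it at 144 h in CT-179 replicates 1 and 3. The difference at 24 h did not pass with a correction for length beside the left-out library.

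In whole brain on postnatal day 15, none of the 9 members passed the test of CT-179 against vehicle, where 0% of the 13422 genes tested were higher and 0% lower and 490 genes had an unadjusted p below 0.05. The brain and cell tables were scaled separately, and no level was tested between them.

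Cdk4 was again the highest member, at 34.1, 42.0 and 42.7 FPKM in vehicle and 41.6, 35.5 and 39.5 FPKM in CT-179. Cdkn1b gave 20.8, 18.2 and 18.7 FPKM in vehicle and 16.4, 23.0 and 20.7 FPKM in CT-179, and Ccnd3 gave 15.9, 17.1 and 18 FPKM and 20.9, 15.6 and 16.9 FPKM. Ccnd1 was near Ccnd3, at 12.6, 16.4 and 18.4 FPKM in vehicle and 17.5, 14.4 and 18.5 FPKM in CT-179. The groups overlapped for each of these genes. Ccnd3 made up 42.7% ± 5.16 (SD, n = 3) of the summed D-type cyclins in vehicle brain and Ccnd1 39.1% ± 1.08. Of the INK4 genes in the brain table Cdkn2d, which is high in neurons, held 89.2% ± 0.920 of the sum in vehicle.

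Ccnd2 varied most between brains of 1 group among the cyclins, at 4.10, 9.36 and 9.12 FPKM in vehicle and 8.84, 5.95 and 7.95 FPKM in CT-179. Cdk6 behaved likewise, at 0.371, 1.31 and 1.06 FPKM and 0.713, 0.590 and 1.05 FPKM. Vehicle replicate 1, lowest in both, also had the lowest Atoh1, a granule neuron precursor marker, at 0.321 FPKM against 1.41 and 1.07 FPKM in the other vehicle brains, and the lowest Gli1 of its group, at 2.86 against 5.24 and 4.74 FPKM. The part of such cells in these values was not tested. Rb1 gave 7.36, 7.12 and 6.44 FPKM in vehicle and 5.81, 6.88 and 6.86 FPKM in CT-179, and Cdkn2c 2.43, 3.50 and 2.79 FPKM and 2.71, 3 and 3.21 FPKM, with overlap in both.

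**Figure D5:**
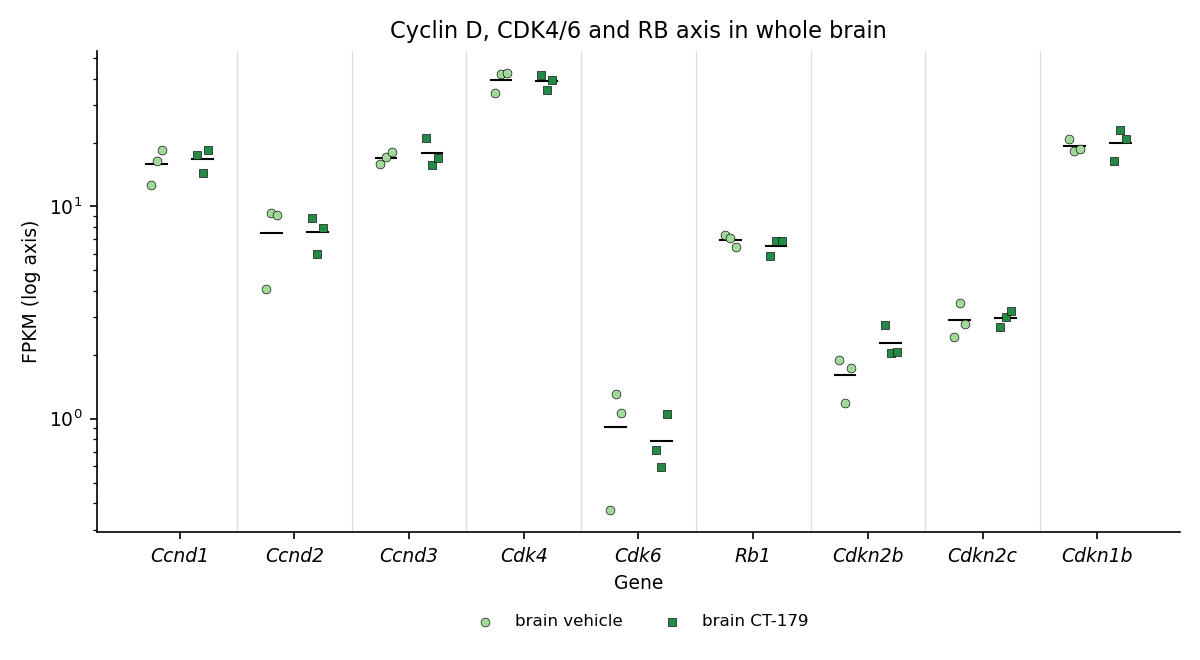
FPKM of the 9 genes of the brain table (log axis) in the 3 vehicle and 3 CT-179 brains, as points for single libraries and a black line for the group mean. Cdkn2b is the gene whose groups do not overlap (1.19 to 1.90 FPKM in vehicle and 2.03 to 2.76 FPKM in CT-179).

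Cdkn2b was the member whose brain groups did not overlap, as in 5.71% of all genes tested in the higher and 4.6% in the lower direction, with 1.90, 1.19 and 1.74 FPKM in vehicle and 2.76, 2.03 and 2.05 FPKM in CT-179. It rested on 21 to 157 implied reads per library. Its log2 difference was 0.33 (SE 0.14), with an unadjusted limma p of 0.043 and an adjusted p of 0.97, and it was 0.21 (limma adjusted p = 1) without vehicle replicate 2. The other members had log2 differences from -0.09 (Rb1) to 0.09 (Ccnd1). Across all genes tested in brain the CT-179 difference fell with gene length (Spearman's rho -0.33, and -0.23 without vehicle replicate 2). At 1390 bp Cdkn2b is the shortest of the 9 members, and no member passed with a correction for length. The authors' deposited fold changes are vehicle over CT-179 without vehicle replicate 2, the reverse of the direction used here. There Cdkn2b had a log2 fold change of -0.32, which is lower in vehicle, and a likelihood ratio test p-value of 0.27. The false discovery rate was 1.0 for each of the 9 members.

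None of the genes of the 9 pathway lists passed in brain. Cdkn1a gave 16.0, 16.6 and 16.0 FPKM in vehicle and 23.8, 21.6 and 19.7 FPKM in CT-179, so the groups did not overlap, with a log2 difference of 0.40 (SE 0.08, limma adjusted p = 0.97). Gli1 had -0.23 and Mycn -0.05. Choroid plexus markers summed to 1042 to 1376 FPKM in vehicle brains and 1096 to 2386 FPKM in CT-179 brains, and erythroid markers to 47.0 to 154 and 53.6 to 243 FPKM. Markers of oligodendrocyte precursors summed to 273 to 275 and 302 to 320 FPKM. For all 3 kinds, their part in the member values was not tested.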

How the data were processed

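Per the labels' protocols, total RNA was made into libraries with a SMARTer mRNA kit and sequenced as paired ends of 100 bases. The submitters' processing notes name mm10 and, with no roles, STAR 2.6.0c and Trim Galore 0.5.0, then edgeR 3.28.1, R 3.6 and HTSeq 0.6.1p2. Strand and settings are not given in the sources used here. Per the file headers, the deposited values are FPKM, one for each gene in each library. For brain their deposited table adds the log2 fold change and log2 mean abundance, the score of a likelihood ratio test, and each p-value, raw and adjusted. The deposited brain log2 fold change matched vehicle replicates 1 and 3 over CT-179 replicates 1 to 3 (r 0.99995 across genes, against 0.70841 with all libraries).

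Members and gene lists were chosen with earlier results of these data known. Groups follow the labels. Genes with at least 1 FPKM in 3 libraries were fitted as log2(FPKM + 1) by limma 3.58.1 in R 4.3.3 (group means, variance trend, two-sided, Benjamini-Hochberg over all genes tested, threshold 0.05), with 12 cell libraries in 1 fit and 6 brain libraries in another. The pseudocount understates changes of low genes. Named beside members were up to 4 genes per list with the smallest p past the threshold (otherwise 2 as values), Gli1, Mycn, E2f1 and Cdkn1a, and the 3 genes most like Ccnd1, Ccnd2 and Cdk6. Gene lengths are exonic unions of GENCODE vM21, found for 99.5% of cell and 99.8% of brain genes. Implied reads come from the FPKM step of 1 read (90.0% to 98.5% of low values whole within 0.1 read); they were not used as counts, and describe counting depth only. Replicate numbers were checked as pairs from the values alone. Deviations of CT-179 libraries of the same number at 24 h and 144 h had r 0.11, 0.24 and 0.14. Different numbers reached like values: 24 h replicate 1 with 144 h replicate 3 had 0.10, and 24 h replicate 3 with 144 h replicate 1 had 0.15. The check therefore does not show pairs, and a block changed no member's call there. The fit was tested on simulated data. Alternatives were another pseudocount, no filter, other scalings, array weights, a replicate block, a length correction (lowess span 0.3), separate fits and leaving out each library.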

Additional observations from a re-analysis of the deposited data

How the results depend on the processing

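With all 12 cell libraries, the number of members past the threshold stayed at 0 for the CT-179 effect at both times and for its difference between times under the pseudocount of 0.1, no filter, median-of-ratios scaling and TPM scaling, and at 8 for time in vehicle. Array weights gave 5, 6 and 2 members for those 3 comparisons, the length correction gave 1 at 144 h (Ccnd2), and the separate fit of the 2 groups gave 3 at 24 h (Cdk4, Cdkn2a and Cdkn2c) from 701 higher and 1295 lower genes against 0 and 33; at 144 h the separate fit called 0 genes, against 64 higher and 422 lower. Genes called at 24 h were 15 with median-of-ratios scaling, which at 144 h split them 114 higher and 297 lower. Of 12510 genes tested, array weights called 1184 higher and 2135 lower at 24 h and 2673 and 3317 at 144 h. For the difference between times array weights called 604 higher and 627 lower. The length correction called 217 higher and 506 lower of 12505 genes at 144 h. Leaving out 1 library at a time gave 0 to 5 members at 24 h, 0 to 4 at 144 h and 0 to 1 for the difference between times; the upper value came each time from leaving out CT-179 144 h replicate 2. Alternatives added after seeing the data left that library out together with another choice. Median-of-ratios scaling then gave 5, 6 and 1 members, TPM scaling 4, 3 and 1, and the length correction 2, 4 and 1. Higher and lower genes over all genes tested follow in the same order. They were 2623 and 1067, 2777 and 1406, and 124 and 183 of 12445 with median-of-ratios scaling. TPM scaling gave 388 and 3346, 698 and 3412, and 147 and 206 of 12500. The length correction gave 1153 and 851, 1592 and 1344, and 164 and 230 of 12454. In brain every alternative gave 0 members. The all-gene median at 144 h went from -0.05 to -0.20 under TPM scaling.

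Members that missed the threshold in the fit of all libraries changed sign as follows in the cell comparisons of treatment and of time, and the cause was not tested. Under median-of-ratios scaling Rb1 at 24 h was 0.03 and Ccnd1 at 144 h 0.02, and without the library apart Rb1 was 0.04 at 24 h, at 144 h Ccnd1 was 0.11, Cdk6 0.06 and Cdkn1b 0.01, and over time in CT-179 Ccnd3 was -0.02 and Cdkn2a -0.12. Under TPM scaling Ccnd3 and Cdkn1b at 24 h were each -0.03, Ccnd2 at 144 h was -0.12, and over time in vehicle Ccnd3 was 0.05 and Cdkn2a 0.03; without the library apart these were again -0.03, -0.03, 0.05 and 0.03, apart from Ccnd2. Array weights gave Ccnd1 0.07 at 144 h and Cdkn2a -0.05 over time in CT-179. The length correction gave Rb1 0.03 at 24 h, at 144 h Ccnd1 0.01, Cdk6 0.18 and Cdkn2b -0.03, and Cdkn2a 0.01 over time in vehicle; without the library apart it gave Rb1 0.03, Ccnd1 0.08, Cdk6 0.14, Cdkn2a 0.01 and, over time in CT-179, Ccnd3 -0.02. Leaving out 1 library at a time gave ranges that crossed 0 for Rb1 at 24 h (-0.06 to 0.01), for Ccnd2 (-0.06 to 0.29), Ccnd1 (-0.12 to 0.06) and Cdk6 (-0.33 to 0.02) at 144 h, and for Cdkn2a over time in CT-179 (-0.06 to 0.49). In brain every member but Cdkn2b and Rb1 changed sign under at least 1 alternative, as did Ccnd1, Cdk6, Cdkn2b and Cdkn2c in the difference between times. The members' median there went from 0.08 to -0.06 under TPM scaling, and in brain from 0.04 to -0.03 under TPM scaling, -0.02 with array weights and without CT-179 replicate 1, and -0.05 without vehicle replicate 1.

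Same-numbered cell libraries deviated from their group means with correlations of -0.13 to 0.24 and brain libraries of -0.39 to 0.11. The highest in cells, 0.24, joined replicate 2 of CT-179 at 24 h to the 144 h library that stood apart. These values do not show that the numbers mark pairs. With the replicate number as a block, the members past the threshold were 0, 0, 8, 7, 0 and 0 over the 6 comparisons, and genes called fell from 33 to 2 at 24 h and from 64 higher and 422 lower to 35 and 266 at 144 h. With 3 libraries a group, and depth giving Cdkn2b in brain 21 implied reads at the least, small differences of low genes were not detectable.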
